A study of Mus musculus with 4 samples.

Results

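Astrocyte-marked droplets were a small fraction of the single-cell libraries made from mouse brain cells sorted for CD31, the endothelial surface protein encoded by Pecam1. They were the kept droplets with at least 6 unique molecular identifiers (UMIs, 1 per captured transcript) summed over Slc1a2, Slc1a3, Aldoc and Gpr37l1. Kept droplets had 1000 UMIs or more from 500 genes or more, and no more than 10% of UMIs came from mitochondrial genes. The rule found 92 of 14864 kept droplets. Mice were C57BL6 and ate either a diet with PLX5622 at 1200 ppm or a control diet, each for 1 month. PLX5622 blocks the CSF1 receptor and depletes microglia. Each diet had 2 libraries, made with 10x Genomics 3′ chemistry from 3 mice across both. All libraries came from brain without meninges, cerebellum and olfactory bulbs, and age and sex were not used here. The labels do not say which mice gave which library, so the spread between libraries may be partly technical. Astrocyte-marked droplets numbered 11 and 21 in the PLX5622 libraries and 12 and 48 in the control libraries.

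Astrocytes clear glutamate and potassium around synapses, and their end-feet cover the brain's vessels. They make much of the cholesterol of the adult brain and release it on particles of apolipoprotein E, while endothelial cells meet sterol from blood and brain. Cholesterol synthesis genes are switched on by SREBP-2 when sterol is scarce, and liver X receptors (LXR) switch on efflux genes when oxysterols accumulate.

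The 4 genes of the rule encode the glutamate transporters GLT-1 (Slc1a2) and GLAST (Slc1a3), aldolase C (Aldoc) and an orphan receptor (Gpr37l1). In GENCODE M21 on GRCm38, which listed 32158 of the 32285 gene identifiers of the files, Slc1a2 spans chromosome 2, 102658659 to 102790784, on the + strand. Slc1a3 spans chromosome 15, 8634124 to 8710764, on the - strand. Aldoc spans chromosome 11, 78322968 to 78327781 (+), and Gpr37l1 chromosome 1, 135160234 to 135167681 (-). All 4 are protein-coding genes. Cldn5, the endothelial tight junction gene used below, spans chromosome 16, 18776847 to 18778262 (+).

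Few kept droplets lay near the threshold of the values that chose the members. Members had 7 to 858 UMIs of the 4 genes, with a median of 38.5. Of the other kept droplets, 14410 had 0 and 362 had 1 to 5. Just outside the threshold, 11 droplets had 3 UMIs, 8 had 4 and 1 had 5. Just inside it, no droplet had 6, while 2 had 7, the lowest value of a member, 4 had 8 and 4 had 9. Of the 92 members, 10 had under 10 UMIs and 22 had 100 or more.

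The members' UMI sums per library were 38767 and 176944 on PLX5622 and 53862 and 362278 on control diet. The 14318 endothelial droplets summed to 16795111 and 23609550 UMIs on PLX5622 and 9179642 and 34482437 on control diet, so the precision of each comparison is set by the members. Members had a median of 4943.5 UMIs and endothelial droplets 5099.5. The median mitochondrial share was 5.66% in members and 3.26% in endothelial droplets. No barcode of a member was also kept in another library, although 21 barcodes occurred in more than 1 library among all kept droplets.

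Markers of other cells were set beside the astrocyte label first, since the sort selected another cell type. Of 92 members, 70 carried no screened list of another class, by limits set after the data were seen. The limits were at least 6 UMIs of Cldn5, Flt1, Slco1a4 and Ly6c1, or at least 10 UMIs of another list. That other list also had to come to at least 10% of the UMIs of Mt3 and the rule genes. Screened were endothelial, fibroblast, ependymal, oligodendrocyte, oligodendrocyte precursor, neuron, microglia, erythroid and smooth muscle lists. Pericyte, choroid plexus, neural stem cell and platelet lists were not screened, and had 40, 108, 266 and 4 UMIs in the 70. In these 70 droplets Slc1a2, a gene of the rule, was present in 70. Mt3, a brain metallothionein gene that was not in the rule but counted in the 10% limit, was present in 68. Of astrocyte genes in neither choice, Ntsr2 was present in 67 of the 70, Aqp4 in 53 and Gfap in 18. Pecam1 itself had 0 UMIs there. Astrocyte markers went with the label in these 70, while the other 22 also carried genes of another class. Values are given below for all members and, as values chosen after seeing the data, for the 70.

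Fibroblast genes marked 7 members. All 76 of their rule UMIs were Slc1a3, and Slc1a2, Aldoc, Gpr37l1, Mt3 and Aqp4 were at 0 in each. All 7 carried Dcn, Col1a1, Col1a2 and Vtn, genes of matrix proteins, with 316 UMIs of Dcn in all. For these 7 the markers went against an astrocyte label.

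Ependymal genes, those of the ciliated cells that line the ventricles, marked 8 members, 7 of them in control library 2 and 1 in PLX5622 library 2. Slc1a3 made up 62.2% of their rule UMIs. They had 42 UMIs of the cilium regulator Foxj1, 171 of Ccdc153 and 159 of Tmem212, and 0 of Ntsr2, an astrocyte receptor gene. Mt3 was present in 7 of these 8. The droplet without Mt3, in control library 2, was also fibroblast-marked, with 104 UMIs of fibroblast genes. Of the ependymal list it had 11 UMIs, all of Rarres2.

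Single droplets stood out as well. The myelin genes Mog, Mag, Cldn11, Ermn and Mobp were at 0 in all members. One droplet of PLX5622 library 2 held 7557 UMIs of haemoglobin genes and Alas2. The microglial genes Csf1r, Cx3cr1, C1qa, C1qc, Trem2 and Ctss were at 0 in all members of both diets, and the other 4 of 10 microglial genes summed to 30 UMIs. At 0 too were the proliferation genes Top2a and Mki67.

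Cldn5 was detected in 27 of 92 members, 29.3% (exact 95% interval 20.3 to 39.8%), and 15 of these had exactly 1 UMI. In 8 members there were at least 3 UMIs, 19 to 137 each, and these 8 held 94.4% of all Cldn5 UMIs of the members. The endothelial limit of 6 UMIs counts Cldn5, so these 8 were certain to pass it. Apart from Cldn5, all 8 carried Flt1, Ly6c1 and Slco1a4, with 300, 159 and 87 UMIs in all. Their median was 12427 UMIs per droplet. They numbered 1 and 2 in the PLX5622 libraries and 0 and 5 in the control libraries. By library, Cldn5 was present in 3 of 11 and 7 of 21 members on PLX5622 and in 1 of 12 and 16 of 48 on control diet.

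The other 19 carriers had little Cldn5. In the 70 members without other markers it was found in 17, 24.3%, with at most 2 UMIs in a droplet. Mural droplets, a class that should lack Cldn5 but was defined with under 6 endothelial UMIs, had it in 61 of 308, 19.8%, at a median of 6691 UMIs against 4060 in the 70 members. With each droplet thinned to 1000 UMIs the expected share was 13.02% of members, 6.25% of the 70, 3.89% of mural and 99.4% of endothelial droplets, and no droplet was shallower. Barcodes under 100 UMIs, which hold free RNA, had Cldn5 at 5617 and 5807 CPM (UMIs of a gene per 1000000 UMIs) on PLX5622 and 6402 and 5318 CPM on control diet. The exact 95% intervals of the unthinned shares were 14.8 to 36.0% in the 70 and 15.5 to 24.7% in mural droplets. These intervals pool droplets over libraries and cover counting error only. By library the shares ran from 8.33 to 31.25% in the 70 and from 14.4 to 32.1% in mural droplets. As depth also differed, overlap of the intervals does not show that the classes were alike.

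**Figure D1:**
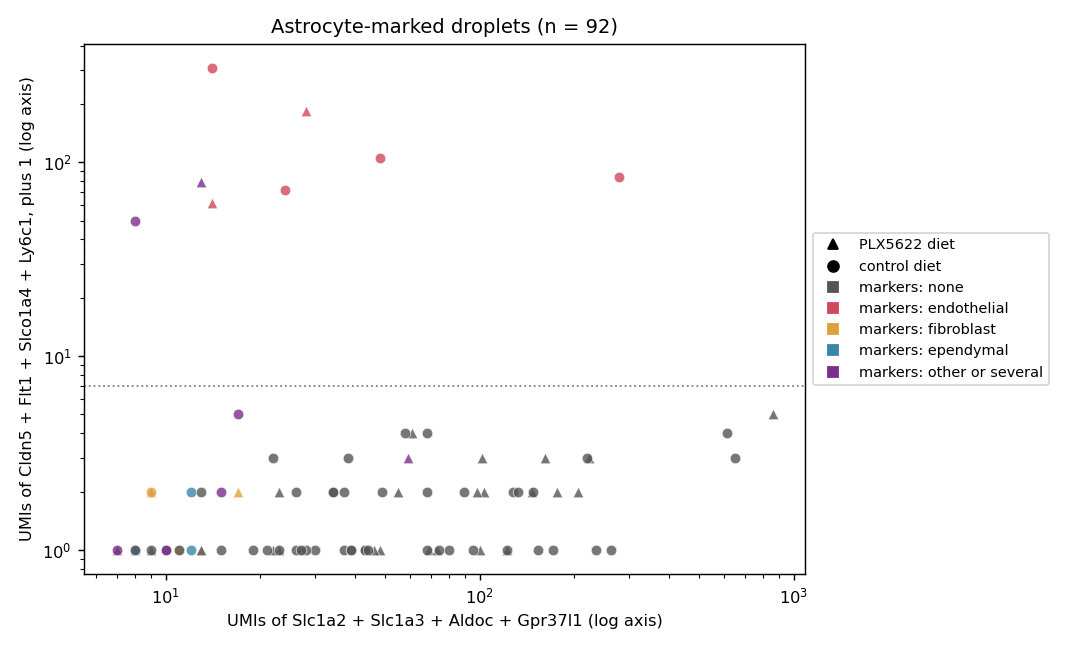
Each of the 92 members is drawn by its UMIs of the 4 rule genes (horizontal, log axis) and of Cldn5, Flt1, Slco1a4 and Ly6c1 plus 1 (vertical, log axis), as a triangle for PLX5622 and a circle for control diet, coloured by the other class marked. The 8 droplets above the dotted line, drawn at 6 UMIs, carry endothelial genes, and points with the same counts overlap.

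The share of kept droplets that were astrocyte-marked was 0.276% and 0.572% on PLX5622 and 0.708% and 0.871% on control diet. Exact 95% binomial intervals, which cover counting error only, were 0.138 to 0.493% and 0.355 to 0.873% on PLX5622, and 0.366 to 1.23% and 0.643 to 1.15% on control diet. Both PLX5622 shares lay below both control shares, at 0.424% ± 0.210 on PLX5622 and 0.789% ± 0.116 on control diet (SD, n = 2 each). The exact two-sided permutation test gave p = 0.333, the smallest that 2 libraries against 2 allow. The order was not kept among droplets of at least 2000 UMIs, with 0.252% and 0.597% on PLX5622 and 0.521% and 0.761% on control diet. A share of cells that passed a CD31 sort is not the share of astrocytes in the brain.

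**Figure D2:**
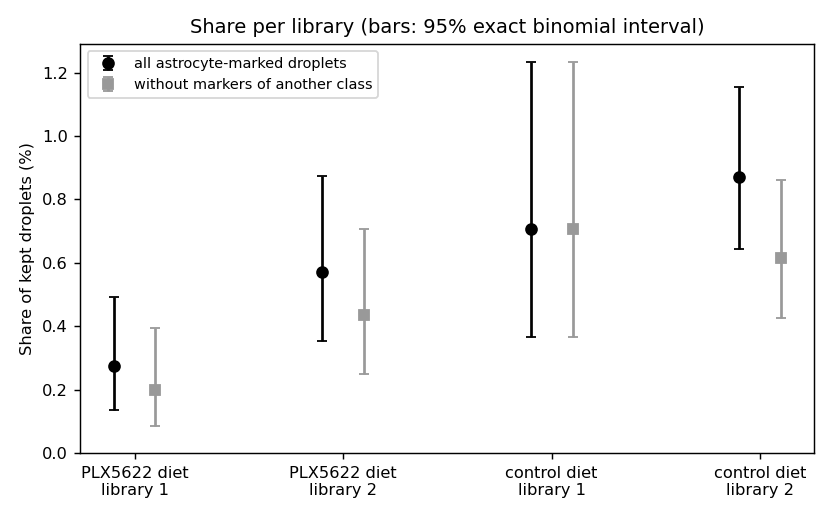
Share of kept droplets (percent) in each of 4 libraries for all astrocyte-marked droplets (black) and those without markers of another class (grey), with exact 95% binomial intervals. The black points run from 0.276% in PLX5622 library 1 to 0.871% in control library 2, and the intervals of neighbouring libraries overlap.

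The astrocyte programme was present in every library. The members were chosen by 4 of these genes, and endothelial droplets had under 6 UMIs of them, so levels are given as a description with no test. Slc1a2 reached 3173 and 7336 CPM in members on PLX5622 and 9691 and 5228 CPM on control diet, against 1.25 to 1.37 CPM in the 4 endothelial sums. Members varied by library, and PLX5622 library 1 was the lowest. In the 70 without other markers Slc1a2 was 5290 and 10567 CPM on PLX5622 and 9691 and 9482 CPM on control diet.

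Genes of glutamate and GABA handling went with it. Of 7, 6 had every member library above every endothelial library, among all members and among the 70 alike. The exception was the glutamine transporter Slc38a3, which endothelial cells also express. Over the 11278 genes tested in the comparison of both classes, 15.5% lay above the endothelial range in this way and 24.2% lay below it, and in the 70 the shares were 14.2% and 28.8%. The genes below numbered 2726, of which 1774 had a member library at 0 UMIs. Glul, glutamine synthetase, was 1522 and 2713 CPM in members on PLX5622 and 3565 and 2034 CPM on control diet, against 639 to 864 CPM in endothelial droplets. Slc6a11, the astrocytic GABA transporter GAT-3, was found in 60 members.

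All 14 genes of ion, water and junction function lay above the endothelial range in members, beside 15.5% of all genes tested. In the 70 it was 13 of 14, and Dag1, dystroglycan, was higher in some libraries and not in others. Aqp4, the end-foot water channel, had 10 and 66 UMIs in members on PLX5622 and 33 and 329 on control diet, and 1 control droplet held 31.5% of them. Gja1, the gap junction protein connexin-43, was 903 and 1543 CPM on PLX5622 and 1968 and 1159 CPM on control diet, against 37.4 to 52.0 CPM in endothelial droplets.

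Of 24 metabolic and secreted genes, 22 lay above the endothelial range, beside 15.5% of all genes tested, and the count was also 22 in the 70. Sparc lay below it and Chrdl1 was at 0 UMIs in 1 member library and in all endothelial libraries. Mt3 was 2734 and 4623 CPM in members on PLX5622 and 4196 and 3947 CPM on control diet, against 0.763 to 1.16 CPM in endothelial droplets. Apoe, the lipid carrier of the brain, was 13439 and 14677 CPM in members on PLX5622 and 12829 and 12424 CPM on control diet. In endothelial droplets Apoe was 797 and 1182 CPM on PLX5622 and 651 and 875 CPM on control diet. The Apoe difference was about 15.2-fold between mean levels, beside 4895-fold for Slc1a2 and 3983-fold for Mt3.

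Of 16 receptors and regulators, 11 lay above the endothelial range, beside 15.5% of all genes tested, among them Ntsr2, Fgfr3, Plpp3 and the glial transcription factor Sox9. Nfib lay below it. S1pr1, Id3, Rgcc and Adora1 were higher in some libraries and not in others. In the 70, 12 lay above the range, and Nfib and Rgcc lay below it.

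Of 18 genes of reactive astrocytes, 10 were among the genes tested. Of these 10, Gfap and S1pr3 lay above the endothelial range in members, and Vim, Osmr, Gbp2, Nes and Hspb1 lay below it. Over all genes tested 15.5% lay above and 24.2% below. In the 70, 1 of the 10 lay above and 6 lay below, beside 14.2% and 28.8%. S1pr3, a receptor for sphingosine 1-phosphate, had 16 UMIs in 5 members. In the 70 it had 2 UMIs in 1 droplet, and in the other 3 libraries all of its UMIs lay in droplets with other markers. Osmr and Gbp2 were at 0 UMIs in control library 1, and in the 70 Osmr had 2 UMIs, Gbp2 1 and Nes 1. Gfap, the intermediate filament used to mark reactive and white matter astrocytes, was found in 21 of 92 members. Its UMIs numbered 3 and 44 on PLX5622 and 3 and 118 on control diet, and 1 control droplet held 60.1% of all of them. Lcn2, Steap4 and Ptx3 had 0 UMIs in members. Endothelial droplets had Lcn2 at 26.8 and 36.1 CPM on PLX5622 and 1.20 and 2.47 CPM on control diet. In members a count of 0 allows up to 13.9 CPM on PLX5622 and 7.21 CPM on control diet (3 UMIs over the members of a diet), so on control diet a level of Lcn2 like that of endothelial droplets was not detectable at this depth.

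**Figure D3:**
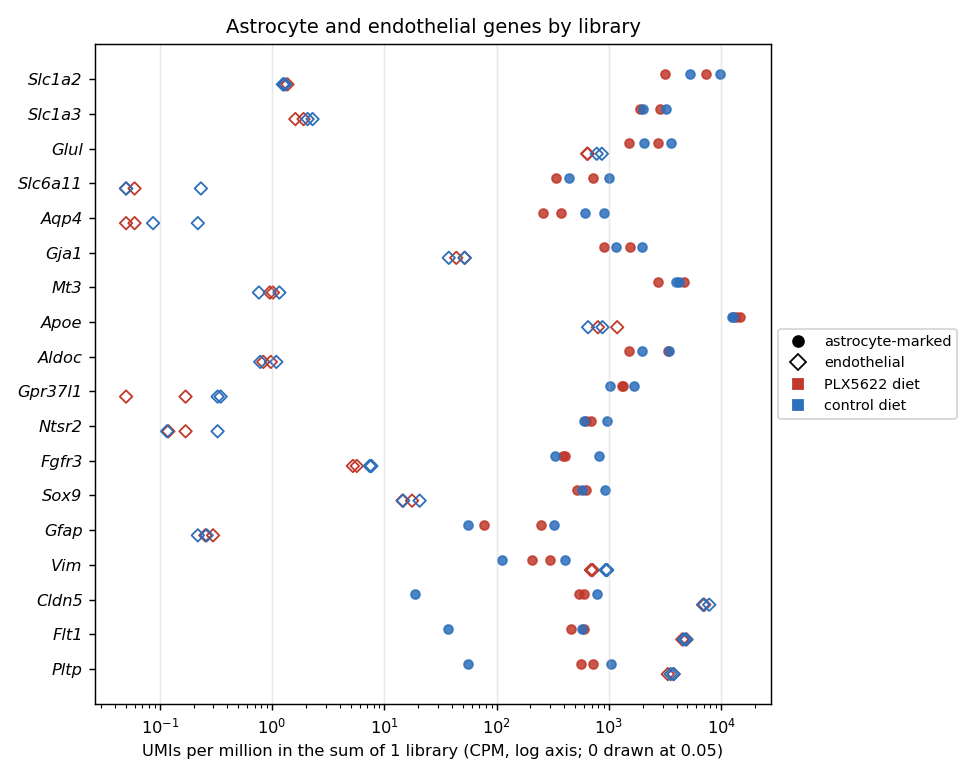
Levels of 18 genes in the summed UMIs of each library, in CPM on a log axis, for astrocyte-marked (filled circles) and endothelial droplets (open diamonds) on PLX5622 (red) and control diet (blue). From Slc1a2 down to Gfap the member values lie to the right of all endothelial values and Vim lies to their left, while Cldn5, Flt1 and Pltp of members lie lowest in control library 1, which had no endothelial-marked member.

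Outside the lists, 4020 genes had at least 20 UMIs in members and at least 1 in each library. The 15 with the highest ratio to endothelial droplets were Gm6145, Btbd17, Fjx1, Cmtm5, Luzp2, Sox2, Pou3f2, Scrg1, Dab1, Psd2, Agt, Mmd2, Slc39a12, Dclk1 and Rorb. Sox2 and Pou3f2 encode neural transcription factors and Agt encodes angiotensinogen. Each of the 15 had 2 to 23 UMIs in all endothelial droplets. Luzp2 was found in 65 members, 59 of them among the 70 without other markers. Sox2 was also found in 7 of the 8 ependymal-marked members, which held 13.5% of its UMIs.

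Immediate early and dissociation genes, which respond within minutes to stress and handling, lay lower in members, as a description with no test. The list summed to 16973 and 9901 CPM in members on PLX5622 and 6257 and 17520 CPM on control diet, against 33295 to 41238 CPM in endothelial droplets. All but Ier3 of the 15 genes lay below the endothelial range, beside 24.2% of all genes tested, and in the 70 all 15 did, beside 28.8%. The level differed by kind of member, at 5494 CPM in the 70 without other markers, 38583 CPM in the fibroblast-marked, 38073 CPM in the endothelial-marked and 12223 CPM in the ependymal-marked. Control library 1, where all 12 members lacked other markers, had the lowest sum of the 4.

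Most cholesterol synthesis genes were higher in members than in endothelial droplets. None of the sterol genes entered the choice of droplets, and the test paired both classes within each library (edgeR quasi-likelihood test on UMI sums, Benjamini-Hochberg adjustment over all genes). Across all 11278 genes tested 35.2% were called, 15.4% higher and 19.8% lower in members. Of 20 cholesterol synthesis genes 16 were higher, 0 were lower and 4 were not called. The list's median log2 difference was 1.81, beside -0.24 over all genes. Under library totals the median of all genes was -0.03 and 16 of the 20 genes were higher. DESeq2, which tested more low genes, put the median of all genes at 1.12 and that of the list at 1.82, and called 15 higher. It split the calls over all genes into 2580 higher and 1569 lower, beside 1739 and 2229 in edgeR.

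Msmo1, the sterol C4-methyl oxidase, was 413 and 492 CPM in members on PLX5622 and 706 and 420 CPM on control diet. In endothelial droplets it was 57.7 and 65.5 CPM on PLX5622 and 19.9 and 23.1 CPM on control diet. The 4 member values did not overlap the 4 endothelial values, and the log2 difference was 3.50 ± 0.32 (SE; adjusted p = 2.44e-26, edgeR). Msmo1 was found in 65 of 92 members, and no droplet held more than 8.53% of its UMIs.

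Sqle, squalene epoxidase, was 77.4 and 56.5 CPM in members on PLX5622 and 204 and 99.4 CPM on control diet. Endothelial droplets had 18.2 and 21.0 CPM on PLX5622 and 5.34 and 4.99 CPM on control diet, a log2 difference of 3.14 ± 0.37. Fdft1, squalene synthase, differed by 2.83 ± 0.33 and Hmgcs1, which makes HMG-CoA, by 2.18 ± 0.30. Of the 16 called genes, 14 were higher in all 4 libraries, the exceptions being Tm7sf2 and Sc5d.

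The 4 genes not called were Mvk, Pmvk, Fdps and Ebp. The kinases of mevalonate (Mvk) and phosphomevalonate (Pmvk) both had log2 differences of 0.42, with SE of 0.47 and 0.35, and farnesyl diphosphate synthase (Fdps) had 0.23 ± 0.33. The sterol isomerase Ebp had 0 and 5 UMIs in members on PLX5622 and 0 and 12 on control diet, and lay below its own endothelial level in all 4 libraries (log2 difference -1.004 ± 0.44, adjusted p = 0.0637, edgeR). Ebp passed the threshold with members of at least 10 rule UMIs (adjusted p = 0.0426, edgeR) with members of under 6 endothelial UMIs (0.0170) and without the low-count filter (0.0188), within a range of 0.0170 to 0.257 over all settings.

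Summed over the 20 genes, the list stood at 1548 and 2006 CPM in members on PLX5622 and 2989 and 1609 CPM on control diet. The 70 without other markers had 2460 and 2591 CPM on PLX5622 and 2989 and 2699 CPM on control diet. Endothelial droplets had 631 and 668 CPM on PLX5622 and 348 and 368 CPM on control diet. The 70 differed less between libraries than all members did. At least 1 UMI of the list was found in 87 of 92 members, 94.6%, and in 84.6% of endothelial droplets. Thinned to 1000 UMIs, the shares were 72.3% of members and 38.3% of endothelial droplets. Fibroblast-marked members held 6 UMIs of the list, 93.9 CPM, and ependymal-marked members 453 CPM.

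The mitochondrial limit bore on these calls. With at most 5% mitochondrial UMIs, 37 members were left, 22 of them without other markers, and 6 of the 20 genes were called higher. The list then summed to 1080 and 1032 CPM in members on PLX5622 and 3300 and 1140 CPM on control diet, still above 627 and 665 CPM on PLX5622 and 346 and 367 CPM on control diet in endothelial droplets. A mitochondrial share over 5% was found in 68.6% of the 70 and in 31.8% of the other 22 members, and its part in the sterol values was not tested.

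**Figure D4:**
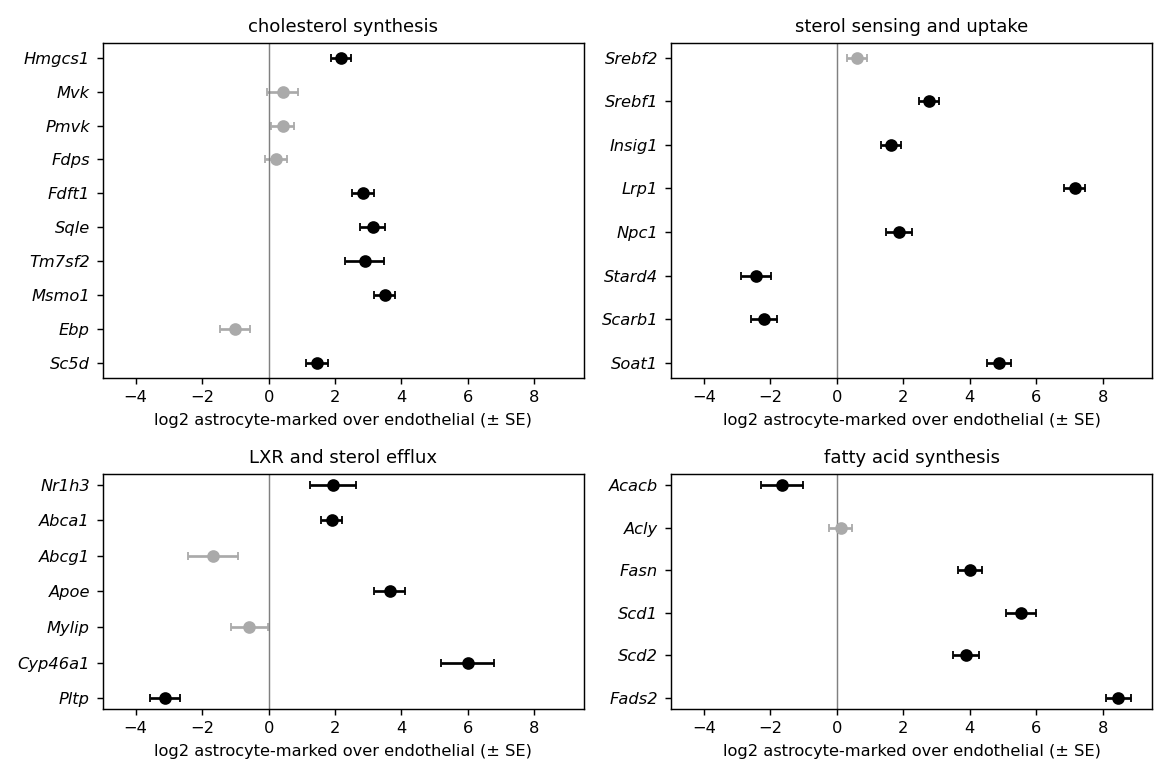
Fitted log2 difference of astrocyte-marked over endothelial droplets with its standard error for the genes of 4 lists that the text names, 4 libraries per class, so the counts over whole lists cannot be read from it. Points right of 0 are higher in members, black points passed an adjusted p of 0.05 and grey points did not, and Ch25h, with 0 UMIs in members, is not drawn.

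Promoter sequence is shown for the 2 cholesterol synthesis genes whose stretch from 250 bases before to 50 after the gene start held TCACNCCA on either strand, a core of the sterol element that SREBP proteins bind. RefSeq promoters on GRCm38.p6 were matched for 15 of the 20 genes, and the motif occurs in 4.36% of all 32851 promoters. Capitals mark the motif, and each line reads 5′ to 3′ along the gene's strand.
Hmgcs1, chr13:119690203-119690232 (+): acgtcaccgtcTCACCCCActtcccaggtc
Msmo1, chr8:64733737-64733766 (-): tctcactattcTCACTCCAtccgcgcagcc
The first motif base lies 137 bases before the RefSeq start of Hmgcs1 and 177 bases before that of Msmo1. The GENCODE vM21 annotation puts the starts elsewhere, with the motif 165 bases before that of Hmgcs1 and 37 bases inside the outermost start of Msmo1, within an untranslated exon. A match describes these letters only.

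Sterol sensing and uptake genes were split. Of 13 tested, 5 were higher (Srebf1, Insig1, Lrp1, Npc1 and Soat1), 2 were lower (Stard4 and Scarb1) and 6 were not called, with a list median of 0.61. Lrp1, a receptor for ApoE particles, was 413 and 254 CPM in members on PLX5622 and 483 and 229 CPM on control diet, against 1.09 to 2.38 CPM in endothelial droplets (log2 difference 7.15 ± 0.33). Soat1, which esterifies cholesterol for storage, was higher by 4.88 ± 0.35. Stard4, a carrier of cholesterol in the cytosol, fell by 2.43 ± 0.46 on the log2 scale, and Scarb1, a lipoprotein receptor, by 2.19 ± 0.40. Srebf2 itself was not called (0.61 ± 0.31, adjusted p = 0.113, edgeR).

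Among LXR and efflux genes 4 of 10 tested were higher, 2 were lower and 4 were not called, with a list median of 0.11, which was also 0.11 with Ch25h at its bound. Abca1, the exporter that loads ApoE with cholesterol, was higher by 1.90 ± 0.31. Apoe was higher by 3.64 ± 0.46, and Cyp46a1, which turns brain cholesterol into 24-hydroxycholesterol, by 5.999 ± 0.79 on 10 UMIs in 9 members. Nr1h3, the gene of LXR-alpha, was called on 9 UMIs. Ch25h, which makes 25-hydroxycholesterol, had 0 UMIs in members and 20.7 CPM over all endothelial droplets, and was at least 4.35-fold lower in members against a floor of 3 UMIs over all members. Endothelial Ch25h was 21.0 and 29.9 CPM on PLX5622 and 14.4 and 15.9 CPM on control diet, above the floor of each diet. Pltp, a phospholipid carrier that is also in the endothelial marker list, fell by 3.12 ± 0.46 on the log2 scale.

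Fatty acid synthesis went the same way as cholesterol synthesis. Of 12 genes 10 were higher, 1 was lower and 1 was not called, with a list median of 3.57. Fads2, the delta-6 desaturase, had 7 and 55 UMIs in members on PLX5622 and 22 and 117 on control diet, against 0.493 to 1.07 CPM in endothelial droplets (log2 difference 8.47 ± 0.38). The stearoyl-CoA desaturase Scd1 was higher by 5.54 ± 0.46, Scd2 by 3.90 ± 0.39 and fatty acid synthase (Fasn) by 4.01 ± 0.37. Acacb, the mitochondrial acetyl-CoA carboxylase, fell by 1.65 ± 0.62 on 6 UMIs (adjusted p = 0.0255, edgeR), a call lost in DESeq2 (0.101), at a 5% mitochondrial limit (0.236) and without PLX5622 library 2 (0.116), control library 1 (0.0623) or control library 2 (0.176). Acly, which supplies acetyl-CoA, was not called.

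The diet comparison asked whether PLX5622 changed expression within the members. Of 2042 genes with enough UMIs, 0 were called at an adjusted p of 0.05 (0% of all genes; edgeR quasi-likelihood test, 2 libraries per diet), while 30 had an unadjusted p under 0.05. DESeq2 also called 0, with 22 under 0.05 unadjusted. Leaving out 1 library at a time gave 0 to 37 calls, 37 of them without control library 2, 17 without control library 1, 12 without PLX5622 library 1 and 0 without PLX5622 library 2. In each of these fits 1 diet had a single library, which was assumed to vary like the other. Without the filter on low counts 14 were called.

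By counts, the 8 genes higher on PLX5622 with the smallest p were Ptn, Vegfa, Olig1, Igfbp2, Rnd3, Scd1, Smdt1 and Marcks. None was called, and all had an adjusted p of 0.9999 (edgeR). They were chosen by their p in this same comparison, so a gap between the diets among all members is no further support. Scd1 was 103 and 187 CPM in members on PLX5622 and 18.6 and 74.5 CPM on control diet, while in the 70 it was 139 and 134 CPM on PLX5622 and 18.6 and 144 CPM on control diet, and these groups overlapped. Vegfa, an endothelial growth factor made by astrocytes, had 19 and 58 UMIs on PLX5622 and 5 and 70 on control diet. As levels this was 490 and 328 CPM on PLX5622 and 92.8 and 193 CPM on control diet. In the 70 without other markers Vegfa was 789 and 461 CPM on PLX5622 and 92.8 and 310 CPM on control diet.

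Ptn, the secreted growth factor pleiotrophin, was 5546 and 4872 CPM in members on PLX5622 and 2265 and 2310 CPM on control diet. In the 70 without other markers the order was the opposite, at 1624 and 1560 CPM on PLX5622 and 2265 and 1917 CPM on control diet. Marcks, a membrane-linked substrate of protein kinase C, was 490 and 390 CPM in members on PLX5622 and 130 and 240 CPM on control diet, while in the 70 it was 92.8 and 75.5 CPM on PLX5622 and 130 and 127 CPM on control diet. For both genes the direction turned when droplets with other markers were left out.

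The 8 genes lower on PLX5622 with the smallest p were Cetn2, Hist1h1c, Notch1, Wsb1, C130071C03Rik, Gna13, Usp2 and Neat1, likewise not called and likewise chosen by p. Notch1, the receptor that restrains neural differentiation, was 25.8 and 62.2 CPM on PLX5622 and 278 and 132 CPM on control diet. Cetn2, a centriole gene, had 0 and 10 UMIs on PLX5622 and 9 and 71 on control diet. In the 70 its level was 0 and 33.5 CPM on PLX5622 and 167 and 22.2 CPM on control diet, and these groups overlapped. The 8 ependymal-marked members numbered 0 and 1 on PLX5622 and 0 and 7 on control diet, and their part in the Cetn2 counts was not tested. Neat1, a nuclear long noncoding RNA, was 258 and 130 CPM on PLX5622 and 1021 and 290 CPM on control diet.

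No cholesterol synthesis gene was called by diet in members (edgeR). Of the 20 cholesterol synthesis genes 9 had enough UMIs, with 0 called and a median log2 difference of -0.09, beside 0.02 over all genes. In the endothelial droplets 1.19% of 12934 genes were called (0.827% higher and 0.363% lower on PLX5622), and 14 of the 20 were higher on PLX5622 with a median of 0.88. Under library totals the endothelial split of higher and lower calls over all genes was 102 and 105, and it was 107 and 47 under TMM scaling. By summed level, all members had 1548 and 2006 CPM on PLX5622 and 2989 and 1609 CPM on control diet, and the groups overlapped. Members without other markers had 2460 and 2591 CPM on PLX5622 and 2989 and 2699 CPM on control diet, or 2525 ± 93.2 CPM on PLX5622 and 2844 ± 205 CPM on control diet (SD, n = 2 each). Both PLX5622 values of the 70 lay below both control values, a description with no test. Their exact 95% Poisson intervals were 1842 to 3217 and 2310 to 2897 CPM on PLX5622 and 2545 to 3488 and 2464 to 2949 CPM on control diet, which overlapped. Endothelial droplets had 649.5 ± 26.2 CPM on PLX5622 and 358 ± 14.0 CPM on control diet (SD, n = 2 each).

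In the 70, Msmo1 was 696 and 688 CPM on PLX5622 and 706 and 754 CPM on control diet, on 15 and 82 UMIs on PLX5622 and 38 and 136 UMIs on control diet. These values lay lower on PLX5622 without overlap, by little. Their exact Poisson intervals overlapped, at 390 to 1148 and 547 to 854 CPM on PLX5622. On control diet the intervals were 499 to 968 and 632 to 891 CPM. Among all members the Msmo1 values of the diets overlapped. In the 70, Hmgcs1 and Fdft1 also overlapped between diets, while Sqle lay lower on PLX5622 without overlap. Endothelial Msmo1, given above, lay higher on PLX5622 without overlap. Diet was not tested in the 70, so no diet change of Msmo1 is shown there.

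**Figure D5:**
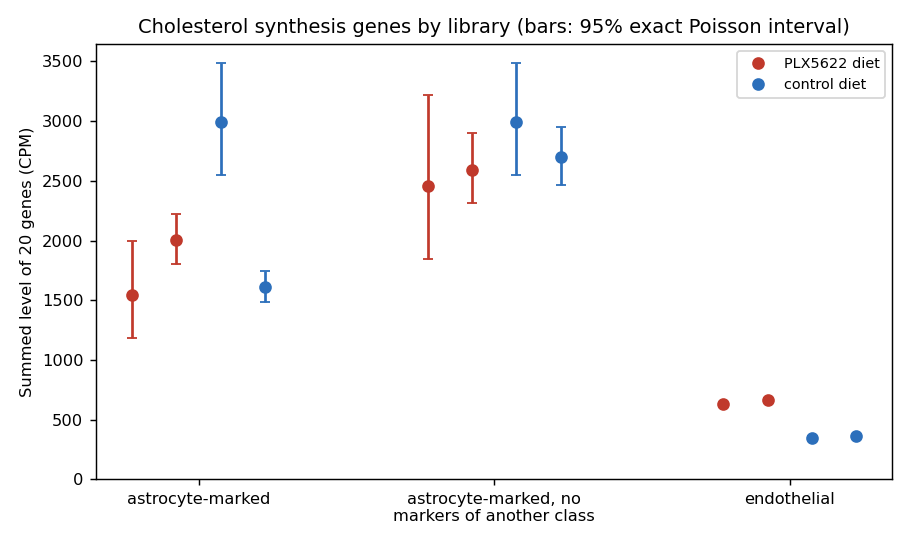
Summed level of the 20 cholesterol synthesis genes (CPM) in each library on PLX5622 (red) and control diet (blue), with exact 95% Poisson intervals that cover counting error only. Endothelial sums lie at 631 and 668 CPM on PLX5622 and 348 and 368 CPM on control diet, the sums of all members overlap between diets, and those of members without other markers lie lower on PLX5622.

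Whether the diet change differed between members and endothelial droplets was tested by the interaction of class and diet. Of 12449 genes 2 were called (0.0161%), Col13a1 higher (0.00803%) and Ccl2 lower (0.00803%), and neither had a UMI in the 70 members without other markers. Of the 20 cholesterol synthesis genes 0 were called, with a median difference of the log2 changes of -1.11, beside -0.10 over all genes. The difference was below 0 for 18 of the 20, beside 55.2% of all genes, a description with no test of the list. Sqle came nearest, at -3.01 ± 0.75 (adjusted p = 0.144, edgeR), with 3 and 10 UMIs in members on PLX5622 and 11 and 36 on control diet. Scd1, which fell by 2.06 ± 0.39 on PLX5622 in endothelial droplets on the log2 scale, had a difference of 3.39 ± 0.81 (adjusted p = 0.119, edgeR), with 4 and 33 UMIs in members on PLX5622 and 1 and 27 on control diet. Of these, 3 and 16 on PLX5622 and 1 and 26 on control diet lay in the 70. DESeq2 called 0 genes, with 53 at an unadjusted p under 0.05. Leaving out 1 library gave 6 calls without PLX5622 library 1, 1 without PLX5622 library 2, 4 without control library 1 and 20 without control library 2. No single cholesterol synthesis gene passed the test of a difference in diet change between the classes, which does not show that the classes responded alike.

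Of the LXR targets lower on PLX5622 in endothelial droplets, Mylip and Abcg1 had few UMIs in members, and Abca1 had more. Mylip, a ubiquitin ligase induced by LXR, had 0 and 0 UMIs in members on PLX5622 and 2 and 10 on control diet. Abcg1, a cholesterol exporter, had 0 and 0 on PLX5622 and 1 and 3 on control diet. Abca1 had 4 and 18 on PLX5622 and 6 and 76 on control diet, a log2 difference of -0.69 ± 0.59 that was not called. In endothelial droplets Abca1 was 19.7 and 20.5 CPM on PLX5622 and 56.8 and 40.3 CPM on control diet. With 215711 UMIs of members on PLX5622, a count of 0 still allows up to 13.9 CPM (3 UMIs), so members on PLX5622 were not shown to lack Mylip or Abcg1.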

How the data were processed

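Deposited values were raw counts of UMIs per gene and barcode, as whole numbers for every barcode and without cell calling, per the file headers and the values themselves. Those headers name Cell Ranger 4, while the submitters' processing notes name Cell Ranger 6.0.1, Seurat 4.0 and the builds mm10 and mm39 with no role. The build and annotation behind the counts are not given in the sources used here.

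Droplets were kept and classed by the rules in the text. Endothelial and mural droplets were kept droplets that were not astrocyte-marked. Endothelial droplets had at least 6 UMIs over Cldn5, Flt1, Slco1a4 and Ly6c1 and under 6 over Vtn, Kcnj8, Acta2 and Tagln. For mural droplets it was the reverse. Members, gene lists and rules were chosen with earlier results of these data known. Doublets were not called, so droplets with more than 1 cell remain. UMI counts were summed per library and class and tested with edgeR 4.0.16 (R 4.3.3; TMM, filterByExpr, quasi-likelihood, two-sided, adjusted p under 0.05), with DESeq2 1.42.0 as an alternative. The fits were tested on simulated sums. Members against endothelial droplets and the interaction used library as a block, and diet fits used none. Intervals are exact and cover counting error only. Named were all listed genes, the 15 genes with the highest ratio outside the lists, and in the diet fit the 8 higher and 8 lower with the smallest p. Python 3.11.15, numpy 2.4.6, scipy 1.17.1 and pandas 2.3.3 were used. Other settings tried were library totals, no filter, other thresholds, a 5% mitochondrial limit, each library left out and a replicate block. Libraries held 567554 to 872190 barcodes and 11186648 to 38600208 UMIs. Libraries of 1 diet differed by more than sampling noise, with a chi-square per degree of freedom of 2.69 to 10.3. Values of some genes of the lists are not reported here, while counts and sums over a list include all of its genes.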

Additional observations from a re-analysis of the deposited data

Results flagged for a closer look

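The diet change differed between astrocyte-marked and endothelial droplets for 2 genes by the interaction test. Ccl2, a chemokine, had a difference of -8.74 ± 1.52 (log2; adjusted p = 0.000109, edgeR). Members had 1 and 0 UMIs on PLX5622 and 0 and 130 on control diet, and endothelial droplets had 26 and 0 on PLX5622 and 0 and 2 on control diet. All 131 member UMIs lay in 4 fibroblast-marked droplets, 101 of them in 1 droplet of control library 2. That droplet also passed the ependymal limit, on 11 UMIs of Rarres2 alone. Col13a1, a membrane collagen, had a difference of 8.45 ± 1.88 (adjusted p = 0.0421, edgeR). Members had 5 and 1 UMIs on PLX5622 and 0 and 8 on control diet, all in the 7 fibroblast-marked droplets, and endothelial droplets had 0 and 0 on PLX5622 and 15 and 60 on control diet. Both genes had 0 UMIs in the 70 members without other markers, and DESeq2 called neither. Groups of 2 libraries are too few to look for a library that stands apart from its group.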

How the results depend on the processing

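The count of cholesterol synthesis genes higher in members was 13 to 16 over all other settings and 6 at a 5% mitochondrial limit, and that of fatty acid genes was 8 to 10. Of 40 called sterol and fatty acid genes 24 were called under every setting that tested them, and 0 changed direction. At the 5% limit 23 of the 40 were called, 15 were not and the rest were not tested. Diet calls in members, 0 in the text, were 14 without the filter and 0 to 37 with 1 library left out. Interaction calls, 2 in the text, were 4 under library totals, 1 without the filter, 0 by DESeq2, 6 at 10 rule UMIs, 4 with under 6 endothelial UMIs, 1 at the 5% limit, and 1 to 20 with 1 library left out. The share difference, -0.37 percentage points, was -0.12 at the 5% limit and -0.51 to -0.22 with 1 library left out. Cldn5 was found in 13.02% after thinning, in 8.70% at 3 UMIs, and in 25 to 32.5% with 1 library left out.

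Both diets have replicate numbers 1 and 2 in the labels, with no shared batch named, and the numbers were not taken to pair the libraries. Deviations of same-numbered libraries correlated at -0.235 in members and 0.0699 in endothelial droplets. With a replicate block 0 diet genes were called in members, and in endothelial droplets 500 in all and 15 of the cholesterol list. With a crossed block, chosen after seeing the data, members had 0 and endothelial droplets 220 in all and 14 of the list. Over all genes, calls of members against endothelial droplets numbered 3968, with 1893 at the 5% limit and 2617 without control library 2. Endothelial diet calls numbered 154, with 379 without the filter, 326 without control library 1 and 296 without control library 2. The few UMIs of members limit every diet value.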

Other observations

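Members differed among themselves in Agt, the angiotensinogen gene, in a split chosen after seeing the data and given with no test. Of the 70 members without other markers, 15 had at least 4 Agt UMIs, numbering 1 and 5 on PLX5622 and 3 and 6 on control diet. In these 15 the GABA transporter Slc6a11 stood at 2288 CPM, against 507 CPM in the other 55, and was found in all 15. Lhx2, a forebrain transcription factor, was found in 3 of the 15 at 64.6 CPM and in 31 of the 55 at 309 CPM. Median depth was 4924 UMIs in the 15 and 3786 in the 55. Slc1a2 was 4822 CPM in the 15 and 10861 CPM in the 55, and Gja1 was 2922 CPM in the 15 and 1582 CPM in the 55. Apoe was close in both, at 16562 CPM in the 15 and 17255 CPM in the 55.

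Astrocyte RNA in barcodes under 100 UMIs exceeded that in endothelial droplets, which by definition had under 6 UMIs of the 4 rule genes. Barcodes under 100 UMIs had no such limit. Slc1a2 stood there at 94.1 and 107 CPM on PLX5622 and 151 and 176 CPM on control diet, beside 1.25 to 1.37 CPM in the endothelial sums. Mt3 stood at 106 and 121 CPM on PLX5622 and 182 and 227 CPM on control diet. Slc1a3, Aldoc and Gpr37l1 ran from 28.6 to 57.0 CPM on PLX5622 and from 50.2 to 79.5 CPM on control diet. For each of these 5 genes, 4 of which chose the members, both control libraries were above both PLX5622 libraries, as they were for Glul. Other genes differed. Apoe was 1150 and 1682 CPM on PLX5622 and 1344 and 1651 CPM on control diet, and these groups overlapped. Sparcl1 lay higher on PLX5622, at 1598 and 1716 CPM against 1316 and 1409 CPM. The share of all genes with either order was not computed, and diet was not tested here. Within a diet the order of the libraries differed between genes, with library 1 above library 2 on PLX5622 for Slc1a3, Aldoc and Gpr37l1 and below it for Slc1a2 and Mt3.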
